A study of Mus musculus with 9 samples.

Results

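The probe sets described here are those of the ubiquitin enzymes, deubiquitinases, cullins, F-box proteins and COP9 signalosome subunits of mouse OB-6 cells, an osteoblastic line from bone marrow, on 9 arrays taken at 0, 30 and 60 min of parathyroid hormone (PTH), with 3 arrays at each time (replicates a, b and c). Members were all probe sets whose platform annotation gives 1 gene symbol that starts with Ube, Usp, Uch, Cul and a digit, Cops or Fbx. These are 112 of the 12488 probe sets on the array and stand for 82 genes. No measured value enters that choice of names, but the family was singled out with the falls of Cops2 and Ube2v2 already known, so the values of those genes are given as a description. The 0 min arrays are the start of the treatment. The sources used here do not give the dose of PTH or the number of separate cultures behind the 3 arrays of a time, and cultures kept for 30 or 60 min without PTH are not analysed here. A change is therefore one since the start of treatment, and the p-values rest on the scatter among arrays of a time, which could be technical.

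Ubiquitin is passed to a substrate in a relay. An activating enzyme (E1) loads it onto a conjugating enzyme (E2, mostly named Ube2), and a ligase (E3) brings the loaded E2 to the substrate. The cullin-RING ligases are built on a cullin scaffold, to which adaptors such as the F-box proteins bring the substrate. A cullin is switched on when the ubiquitin-like protein NEDD8 is attached to it and off when the COP9 signalosome removes NEDD8, and deubiquitinases of the Usp and Uch families take ubiquitin off again. In osteoblasts this system is known for controlling the turnover of the transcription factor Runx2 and of signalling receptors.

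Values below are the deposited linear intensities of single probe sets. Fold changes are differences of log2(intensity + 11.8), a scale that understates the change of dim probe sets. Brighter and brightest refer to the intensity of a probe set and do not rank the transcript levels of genes. Only probe sets with 3 or more arrays over 44.69, the 40th percentile of the whole table, were tested. A call needs an adjusted p under 0.05 in limma's moderated test, with Benjamini-Hochberg adjustment across all 7884 tested probe sets. Of the 112 members 91 were tested, from 72 genes, and 16 of these were not above the threshold on all 9 arrays. A member that passed through the arrays of 1 time alone could hardly fail to differ, so the counts below describe the tested probe sets and are no evidence on the family. The tested members comprised 27 of 29 E2 probe sets, 1 of 2 of the ligases Ube3a and Ube4b, 28 of 39 Usp, 2 of 2 Uch, 4 of 5 cullin, 11 of 11 COP9 signalosome and 18 of 24 F-box probe sets. The 21 untested probe sets had means between 1.68 and 33.0, and 10 genes had no tested probe set, among them the ligase gene Ube3a and Usp18, which removes the ubiquitin-like protein ISG15.

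Of 13 osteoblast markers 8 had a probe set and 6 of these lay above the threshold on all 9 arrays, while the PTH receptor gene Pth1r was above it on 0 arrays. The osteoblast markers did not move one way. Col1a1 had means of 3809, 4715 and 5518 at 0, 30 and 60 min, while Omd had 2083, 871 and 545, Postn 3899.7, 2058 and 1708, and Ibsp 117, 110.1 and 66.6, and the part of these markers in the results was not tested. Among 4 endothelial and 3 chondrocyte markers 0 were above the threshold on all arrays, among 4 adipocyte markers 2, among 6 haematopoietic and osteoclast markers 2, and among 6 skeletal muscle markers 1. The 2 haematopoietic and osteoclast markers were Ctsk, with means of 599, 682 and 547 at 0, 30 and 60 min, and Cd68, with 139, 129 and 117. Of the rest of that list Csf1r lay above the threshold on 8 arrays, Acp5 on 4, and Itgam and Ptprc on 0. Ptprc had means of a time between 3.60 and 7.30. Summed marker intensities overlapped between 60 and 0 min for 5 of the 6 lists. For the endothelial list they lay at 81.1 to 95.3 at 60 min, against 29.3 to 45.3 at 0 min, with its 4 markers below the threshold on every array, and their part in the results was not tested. At 30 min the osteoblast sums lay at 15377 to 17915, below those at 0 min (18460 to 19729). The skeletal muscle sums lay at 331 to 367 at 30 min, above those at 0 min (217 to 308). The remaining lists overlapped between 30 and 0 min, and the part of these shifts in the results was not tested. In such bulk RNA fewer cells of a type and less RNA per cell cannot be told apart. The median intensity of an array was 73.1 to 88.5. Replicate b of 60 min stood apart: its correlations with the other 8 arrays had a median of 0.938, and the rest had medians of 0.954 to 0.967. Where leaving it out ends the call of a named gene this is stated, and the value without it is given for some genes only.

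At 60 min of PTH more members were called lower than higher, with Cops2, Ube2v2, Cul1, Cul2, Cul3 and 6 Usp genes among those that fell. At 60 min 16 of the 91 tested members were lower than at 0 min, from 13 genes, and 2 were higher. Over all tested probe sets, 8.73% were lower and 4.35% higher. At 30 min 1 member was lower and 0 were higher, against 0.457% and 0.482% of all tested. An unadjusted limma p under 0.05 was found for 19 of the 91 members, against 1412 of all 7884 tested probe sets. Between 60 and 30 min 0 members passed limma's adjusted threshold, and 0.0254% of all tested probe sets were called. There 14 members had an unadjusted limma p under 0.05, against 715 of all 7884. Groups without overlap were common on these arrays. At 60 min all 3 arrays lay above those at 0 min for 16 members and below them for 34, against 20% and 20.7% of all tested probe sets, and at 30 min for 8 and 21 members, against 15.3% in each direction. The median log2 fold change of the tested members was -0.15 at 60 min and 0.01 at 30 min, and that of all tested probe sets was 0.03 and 0.05. By class, the called falls at 60 min were 8 of 28 Usp, 3 of 27 E2, 3 of 4 cullin and 2 of 11 COP9 probe sets, with 0 of 18 F-box, 0 of 2 Uch and 0 of 1 ligase probe sets, of which 8, 0 and 0 had an unadjusted p under 0.05. Over all 91 tested members 42 had such a p at 60 min, against 2589 of all 7884 tested probe sets. The number of falls at 60 min depended on single arrays. Leaving out 0 min replicate a left 1 fall, replicate b 3 and replicate c 7, while the shares lower over all probe sets were 0.583%, 0.875% and 2.37%. Without 60 min replicate b it was 11, or 12.1% of the tested members against 4.73% of all tested. The 2 rises were 0 without any of the 0 min arrays, 30 min replicate c or 60 min replicate c, where 0.393% to 2.79% of all tested were higher. There was 1 rise without 60 min replicate b, against 1.97% of all tested. There were 4 without 30 min replicate b (4.43% of all) or 60 min replicate a (6.77%), and 6 without 30 min replicate a (5.66%). After scaling each array to its 75th percentile there were 5 rises and 16 falls at 60 min, against 6.34% and 8.27% of all tested.

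**Figure D1:**
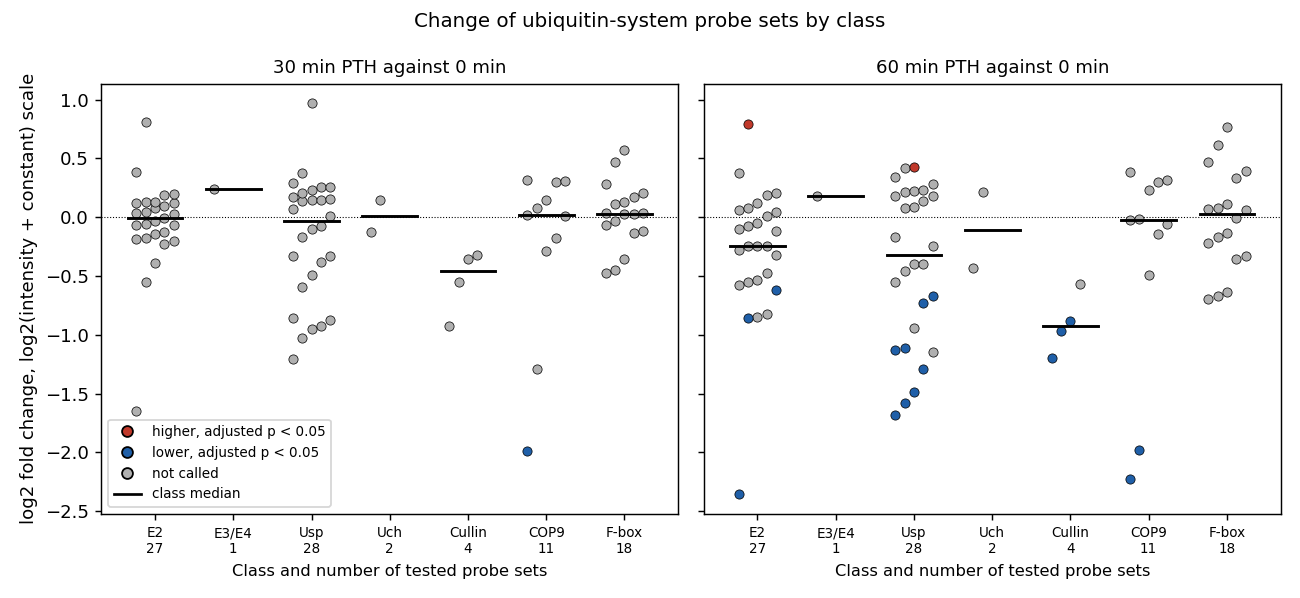
Log2 fold change of each tested probe set against 0 min at 30 min (left panel) and 60 min (right panel), on the log2(intensity + 11.8) scale, by class, with the number of tested probe sets under each class name. Blue points are called lower and red points higher at an adjusted p under 0.05, grey points are not called and black bars are class medians; at 60 min the 4 cullin points all lie below 0 with a median of -0.93, while the F-box median is 0.03.

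Promoter sequence is shown for the genes on which the account turns: Cops2, with 2 called probe sets among the falls, Cul3, the cullin with the largest fall, and Ube2s, the larger of the rises. Each line holds the 150 bases before the annotated start from RefSeq, build GRCm38.p6, on the minus strand, in lower case and 5′ to 3′. Capitals mark the core TGACG of the cAMP response element (CRE) and the TATA box TATAAA, each searched on both strands.
Cops2: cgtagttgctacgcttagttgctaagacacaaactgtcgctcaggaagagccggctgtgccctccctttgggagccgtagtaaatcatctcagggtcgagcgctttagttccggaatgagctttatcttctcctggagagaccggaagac
Cul3: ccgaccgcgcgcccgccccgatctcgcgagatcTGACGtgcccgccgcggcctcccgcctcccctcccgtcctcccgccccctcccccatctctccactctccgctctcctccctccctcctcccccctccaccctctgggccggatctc
Ube2s: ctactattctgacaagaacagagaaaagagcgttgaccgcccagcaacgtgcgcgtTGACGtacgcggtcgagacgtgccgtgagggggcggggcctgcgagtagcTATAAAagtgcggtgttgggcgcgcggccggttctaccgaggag
The Cops2 stretch lies at chr2:125859083-125859232, that of Cul3 at chr1:80340691-80340840 and that of Ube2s at chr7:4812341-4812490. The core in Cul3 begins 117 bases and that in Ube2s 94 bases before the start, and the TATA box of Ube2s begins 44 bases before it. RefSeq entries were matched for 60 of the 82 genes, and Ube2v2, Usp5, Usp9x, Usp33 and Cul2 are not among them. Over the 250 bases before the start, the CRE core stood in 3 of 9 genes with a called fall (Ube2b, Cul3 and Usp38), in 19 of 53 tested genes of the family and in 19.8% of all 27025 genes with an entry. The full CRE TGACGTCA, which overlaps the core, stood in 0 of the 9, in 1 of 53 and in 1.77% of all, the AP-1 letters TGANTCA in 2 of 9 (Cul1 and Usp38), 4 of 53 and 7.82%, and TATAAA in 0 of 9, 3 of 53 and 14.3%. These are matches of letters and say nothing of binding.

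Among the subunits of the COP9 signalosome, Cops2 fell and the other 8 did not pass the test. Cops2 encodes the subunit that holds the cullin while NEDD8 is removed. Its brighter probe set read 611, 544 and 439 at 0 min, 262, 71.6 and 96.7 at 30 min and 146, 86.6 and 86.6 at 60 min (replicates a, b and c). All 6 arrays at 30 and 60 min lay below all 3 at 0 min, and 30 min replicate a lay above the others after PTH. The change was -2.23 (SE 0.37, limma adjusted p = 0.00912) at 60 min, which is 4.68-fold lower on that scale, and -1.99 (SE 0.37, limma adjusted p = 0.0411) at 30 min, the only call of the family at that time. The dimmer probe set read 207, 167 and 162 at 0 min, 103, 35.7 and 74.0 at 30 min and 47.0, 32.6 and 30.7 at 60 min. Its groups at 30 and 60 min also lay wholly below 0 min, with -1.98 (SE 0.29, limma adjusted p = 0.00733) at 60 min and -1.29 (SE 0.29, limma adjusted p = 0.072) at 30 min. The dimmer probe set passed at 60 min in all 18 alternatives run on it, while the brighter one did not without 0 min replicate a (limma adjusted p = 0.0547). Its call at 30 min was lost without a filter, without any 0 min array, without 30 min replicates b or c and without 60 min replicate c, and the limma adjusted p over all alternatives ran from 0.000108 to 0.196. Whether the 2 probe sets share probes was not tested. The fall of Cops2 was known when the family was chosen, so its adjusted p-values are a description and no independent test.

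The other COP9 subunits stood between -0.49 and 0.39 on the log2 scale at 60 min. Cops5, the metalloprotease that cuts NEDD8 from cullins, read 757, 737 and 685 at 0 min, 681, 609 and 640.5 at 30 min and 749, 532 and 705 at 60 min, and its groups overlapped at 60 min. Its difference was -0.15 (SE 0.13, limma adjusted p = 0.491) at 60 min, with a 95% interval from -0.44 to 0.15. Cops6, its partner in the catalytic pair and the brightest subunit, read 1734, 1792 and 1719.8 at 0 min, 1629, 2301 and 1932 at 30 min and 2091, 2700.5 and 2129 at 60 min. Here the 60 min arrays all lay above those at 0 min, and the difference of 0.39 (SE 0.14, limma adjusted p = 0.0855) did not pass, with a 95% interval from 0.08 to 0.69. Cops3 read 488, 469.5 and 461 at 0 min, 375, 425 and 360.3 at 30 min and 433, 203 and 415 at 60 min, with 60 min replicate b far below replicates a and c. Its difference at 60 min was -0.49 (SE 0.23, limma adjusted p = 0.171), and -0.15 without that array. Cops4 stood at 0.30, Cops9 at 0.32, Cops7b at 0.23, Cops8 at -0.03 and Cops7a at -0.02 and -0.06 by its 2 probe sets at 60 min. The limma adjusted p of the 9 probe sets outside Cops2 lay between 0.0855 and 0.933 at 60 min.

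The cullins, scaffolds of the largest group of ubiquitin ligases, were lower at 60 min in 3 of 4 tested genes. Over all genes by their brightest probe set the share was 9.1%. Of all tested probe sets, 20.7% had every 60 min array below the 0 min arrays, and 15.3% every 30 min array. Cul3, which binds substrates through BTB-domain proteins, read 829, 794 and 741 at 0 min, 537, 326 and 389.9 at 30 min and 448, 217 and 393 at 60 min. All arrays after PTH lay below those at 0 min, and its change was -1.19 (SE 0.25, limma adjusted p = 0.0167) at 60 min and -0.93 (SE 0.25, limma adjusted p = 0.105) at 30 min. Cul1, the scaffold of the SCF ligases that use F-box proteins, read 685, 676 and 643 at 0 min, 570.1, 393 and 410.4 at 30 min and 445, 218 and 385 at 60 min. The groups again did not overlap, with 60 min replicate b the lowest array, and the change was -0.97 (SE 0.23, limma adjusted p = 0.0258) at 60 min. Cul2, which works with elongins and the von Hippel-Lindau protein, read 375, 270.4 and 297 at 0 min, 281, 207 and 258 at 30 min and 199, 99.5 and 216 at 60 min. The 60 min arrays lay below the 0 min arrays while those at 30 min overlapped them, and the change at 60 min was -0.89 (SE 0.25, limma adjusted p = 0.0438). Cul4a, which binds substrates through Ddb1, read 490.1, 501 and 486 at 0 min, 413, 354 and 381 at 30 min and 436, 236 and 341 at 60 min, with every array after PTH below the 0 min arrays. Its difference of -0.57 (SE 0.18, limma adjusted p = 0.064) at 60 min did not pass. Cul7 was too dim to be tested, with values between 7.0 and 51.9. Without 60 min replicate b the log2 fold changes at 60 min were -0.89 for Cul3, -0.67 for Cul1, -0.56 for Cul2 and -0.34 for Cul4a, and that of Cul2 no longer passed (adjusted p = 0.0747). Leaving out any 0 min array ended the calls of all 3 cullins. The call of Cul2 also ended without 30 min replicate c, without a filter, after cyclic loess and in a fit of the 2 times alone.

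**Figure D2:**
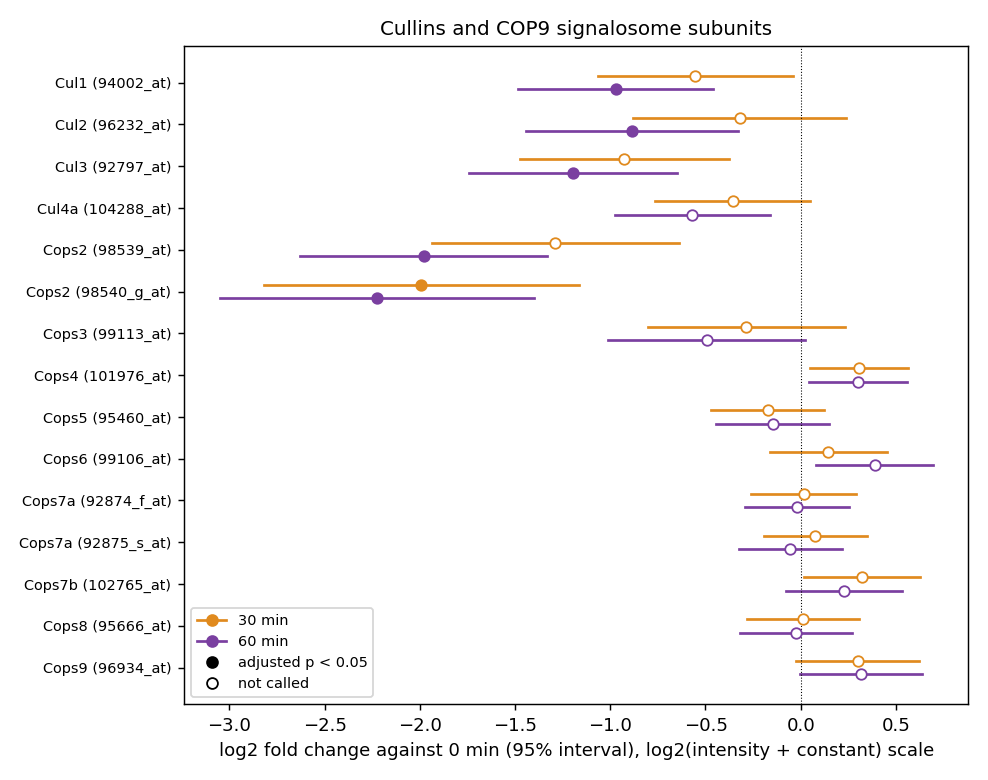
Log2 fold change against 0 min with its 95% interval for each tested probe set of the cullins and COP9 signalosome subunits, orange at 30 min and purple at 60 min, with filled circles for an adjusted p under 0.05. Both probe sets of Cops2 lie at or below -1.98 at 60 min, Cul1, Cul2 and Cul3 between -1.19 and -0.89, and the other COP9 subunits between -0.49 and 0.39.

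Among the conjugating enzymes Ube2v2 fell to intensities below the threshold for testing. Ube2v2 and Ube2v1 are E2 variants that lack the catalytic cysteine and pair with Ube2n to build ubiquitin chains linked through lysine 63. The brighter Ube2v2 probe set read 151, 129.6 and 140.2 at 0 min, 80.1, 19.5 and 27.6 at 30 min and 26.6, 6.40 and 25.4 at 60 min. The groups did not overlap at either time, the 30 min arrays were spread widely with replicate a the highest, and 2 of the 3 arrays at 30 min and all at 60 min lay below the threshold for testing, so the size of the fall depends on the added constant. The change was -2.36 (SE 0.41, limma adjusted p = 0.0096) at 60 min and -1.65 (SE 0.41, limma adjusted p = 0.0826) at 30 min, and the 60 min value was -3.01 with a constant of 1 and -1.54 with one at the 40th percentile, where the brighter Cops2 probe set stood at -1.94. It was -2.005 without 60 min replicate b. The call at 60 min was lost without 0 min replicate a (adjusted p = 0.0561). This probe set lay above the threshold for testing on 4 arrays, the 3 at 0 min and 30 min replicate a, so it was tested through its high arrays. The fall of Ube2v2 was also known when the family was chosen. Its adjusted p-values are therefore a description and no independent test. The other Ube2v2 probe set was not tested, with values between 7.40 and 23.3. Ube2v1, chosen for comparison after its values were seen, read 866, 883 and 880.4 at 0 min, 844, 1102 and 951 at 30 min and 1061, 1280.1 and 1093 at 60 min. Its 60 min arrays all lay above those at 0 min, and the difference of 0.38 (SE 0.12, limma adjusted p = 0.0629) did not pass. Ube2n, the brightest E2 of the family, read 1886, 1956 and 1755 at 0 min, 1815, 1737 and 1789 at 30 min and 1859, 1783 and 1667 at 60 min, with overlapping groups and a difference of -0.08 (SE 0.09, limma adjusted p = 0.604) at 60 min (95% interval -0.27 to 0.12).

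Ube2s, which extends ubiquitin chains for the anaphase-promoting complex (APC/C), was the E2 that rose. It read 158, 183 and 180.1 at 0 min, 423, 248 and 290.0 at 30 min and 275, 253 and 424 at 60 min, so that all arrays after PTH lay above the 0 min arrays, with 30 min replicate a and 60 min replicate c the highest. The rise was 0.79 (SE 0.22, limma adjusted p = 0.0412) at 60 min and the difference 0.81 (SE 0.22, limma adjusted p = 0.111) at 30 min. The call was lost without any 0 min array, without 30 min replicate c or 60 min replicate c, and without a filter. The closely related Ube2a and Ube2b, E2 enzymes of the DNA damage and histone ubiquitination pathways, fell at 60 min and are named beyond the fixed rule after their values were seen. Ube2b read 444, 396 and 407 at 0 min, 363, 259.6 and 326 at 30 min and 269, 153 and 269.7 at 60 min, with -0.86 (SE 0.21, limma adjusted p = 0.0261) at 60 min. Ube2a read 208, 193 and 199 at 0 min, 150.3, 183 and 196 at 30 min and 139, 95.6 and 150.2 at 60 min, with -0.62 (SE 0.17, limma adjusted p = 0.0408), and its 30 and 0 min arrays overlapped. Without 60 min replicate b Ube2b stood at -0.60 and kept its call, while Ube2a stood at -0.44 and lost it (adjusted p = 0.0897). Leaving out any 0 min array ended both calls, and that of Ube2a ended also without 30 min replicate c, without a filter, after quantile normalization or cyclic loess and in a fit of the 2 times alone. Ube2r2, an E2 of the SCF ligases and the other of the brightest E2 genes, had 1465 ± 288 at 60 min, against 1386 ± 95.1 at 0 min (SD, n = 3 arrays each). The 23 E2 probe sets that were not called at 60 min lay between -0.85 and 0.38.

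Among the deubiquitinases of the Usp family 8 of 28 tested probe sets fell at 60 min, from 6 genes, against 8.73% of all tested probe sets. Usp9x, a large and broadly acting enzyme, was seen by 2 probe sets. The brighter read 1167, 1297 and 1049.9 at 0 min, 867, 435 and 567 at 30 min and 547, 374 and 507 at 60 min. All arrays after PTH lay below those at 0 min, with -1.29 (SE 0.23, limma adjusted p = 0.0104) at 60 min. The dimmer stood at -1.12 (SE 0.26, limma adjusted p = 0.0237), and its call was lost without 60 min replicates b or c. Usp34, an enzyme known for acting on axin in Wnt signalling, read 963, 877 and 839.9 at 0 min, 653, 359.8 and 428 at 30 min and 493, 351 and 372 at 60 min by its brighter probe set. It fell at 60 min by a log2 change of -1.13 (SE 0.20, limma adjusted p = 0.0113), and the second probe set stood at -1.58 (SE 0.32, limma adjusted p = 0.0159), without overlap of the groups in either. Whether the paired probe sets share probes was not tested.

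Usp33 read 194, 171 and 171 at 0 min, 137, 69.6 and 83.4 at 30 min and 79.9, 33.4 and 63.7 at 60 min, with no overlap between PTH and 0 min arrays and the 2 lowest values on the replicates b and c of 60 min. Its change was -1.49 (SE 0.28, limma adjusted p = 0.0132) at 60 min. Usp8, which deubiquitinates receptors at endosomes, changed less but with little spread and is named after its values were seen. It read 339, 323 and 326 at 0 min, 261, 255 and 266 at 30 min and 216, 160.3 and 210.3 at 60 min, so that the 3 times formed 3 separate groups in falling order, and its change was -0.73 (SE 0.13, limma adjusted p = 0.0113) at 60 min. Usp38, named likewise, stood at -0.67 (SE 0.18, limma adjusted p = 0.0346). Usp15, an enzyme associated with the COP9 signalosome, gave opposite values by its 2 probe sets. The brighter read 288, 285 and 277 at 0 min, 214, 66.6 and 106 at 30 min and 143, 35.1 and 94.9 at 60 min, and fell with -1.69 (SE 0.43, limma adjusted p = 0.031) at 60 min. The dimmer read 114, 20 and 86.8 at 0 min, 151, 89.8 and 167 at 30 min and 99.5, 101 and 63.7 at 60 min, where 0 min replicate b was low, the groups overlapped and the difference was 0.42 (SE 0.44, limma adjusted p = 0.552). Usp15 was the only one of 18 genes with several tested probe sets whose calls at 60 min differed among them, and in 16 of the 18 all probe sets had the same sign.

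Without 0 min replicate a, and likewise without replicate b, all 8 Usp falls at 60 min lost their call. Without 0 min replicate c those of Usp15, Usp38 and the dimmer probe sets of Usp34 and Usp9x were lost. The fall of Usp15 also lost its call without a filter and without 60 min replicate c, and that of Usp38 without a filter, after quantile normalization, in a fit of the 2 times alone and without 30 min replicate c or 60 min replicate c. Usp15 (-1.20, limma adjusted p = 0.069), Usp38 (-0.49, 0.0747) and the dimmer Usp9x probe set (-1.02, 0.0593) did not pass without 60 min replicate b. The falls of Usp33, Usp34, Usp8 and the brighter Usp9x probe set still passed without it, with log2 fold changes between -1.33 and -0.60. Usp5, which takes apart free ubiquitin chains, was the Usp that rose. It read 736, 773 and 837 at 0 min, 948, 1023 and 907 at 30 min and 933, 1187 and 1061 at 60 min, with all arrays after PTH above those at 0 min, and its rise of 0.43 (SE 0.12, limma adjusted p = 0.0364) at 60 min was lost without any 0 min array, without 30 min replicate c, without 60 min replicates b or c, without a filter, after cyclic loess and in a fit of the 2 times alone. Usp3, the other of the 2 brightest Usp genes, which acts on histones, stood at 0.22, 0.22 and 0.28 by its 3 probe sets. The 19 Usp probe sets not called at 60 min lay between -1.15 and 0.42, with Usp24 nearest to the threshold at an adjusted p of 0.0528 and a log2 fold change of -1.15.

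**Figure D3:**
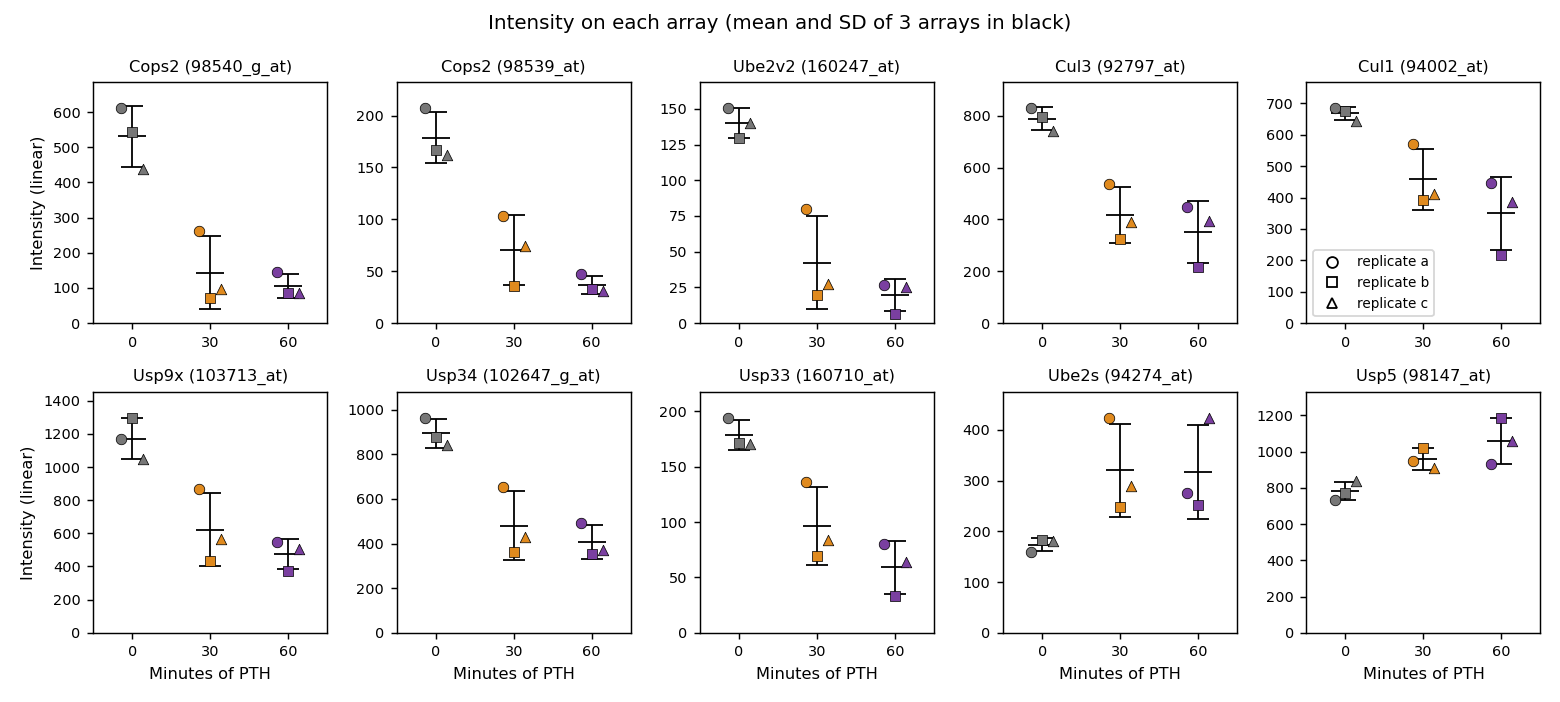
Linear intensity on each array for 10 probe sets at 0, 30 and 60 min of PTH (x axis, minutes), with circles, squares and triangles for replicates a, b and c and the mean and SD of 3 arrays in black. In the 8 panels of Cops2, Ube2v2, Cul3, Cul1, Usp9x, Usp34 and Usp33 every array after PTH lies below the 0 min arrays and 30 min replicate a is the highest of its time, while Ube2s and Usp5 lie above 0 min on every array after PTH.

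The F-box proteins, the substrate adaptors of the SCF ligases, and the Uch enzymes and ligases held 0 called members in limma. Of all tested probe sets 8.73% were lower and 4.35% higher at 60 min, so a count of 0 in so few members does not set them apart. An unadjusted limma p under 0.05 at 60 min was found for 8 of the 18 F-box probe sets, against 2589 of all 7884. Fbxo6, an adaptor for glycoproteins and the brightest F-box gene, read 759.5, 691 and 731 at 0 min, 670.5, 924 and 891 at 30 min and 885, 1222 and 957 at 60 min. Its 60 min arrays lay above the 0 min arrays, with replicate b the highest, and the difference of 0.47 (SE 0.15, limma adjusted p = 0.0642) did not pass, and was 0.34 without that array. The other Fbxo6 probe set was too dim to be tested, with means of 18.6, 31.7 and 26.9 at 0, 30 and 60 min. Fbxw11, which marks beta-catenin and IkappaB for degradation, stood at -0.13 and 0.00 by its 2 probe sets at 60 min, with overlapping groups. The 18 F-box probe sets lay between -0.69 and 0.77 at 60 min, 9 above and 9 below 0. Uchl1 and Uchl5, small deubiquitinases of which Uchl5 works at the proteasome, stood at 0.21 and -0.43, and the ligase Ube4b at 0.18.

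The called falls differed between arrays of one time. The 16 probe sets that were lower at 60 min had been chosen by that value, and had a median log2 fold change of -1.16 at 60 min and -0.90 at 30 min, with both comparisons sharing the 0 min arrays. On single arrays their median deviation from the 0 min mean was -0.84, -1.59 and -1.18 on 60 min replicates a, b and c. On the 30 min arrays it was -0.39 for replicate a, -1.26 for b and -0.995 for c. Replicate b was thus the lowest and replicate a the highest array at both times. In 13 of the 16 the lowest of all 9 values was on 60 min replicate b, and in 15 of the 16 replicate b was the lowest of the 30 min arrays. The median over all 91 tested members was -0.04, -0.23 and -0.19 on the 60 min arrays, and that over all tested probe sets was 0.02, 0.08 and 0.005. The cause of these differences between arrays was not tested.

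**Figure D4:**
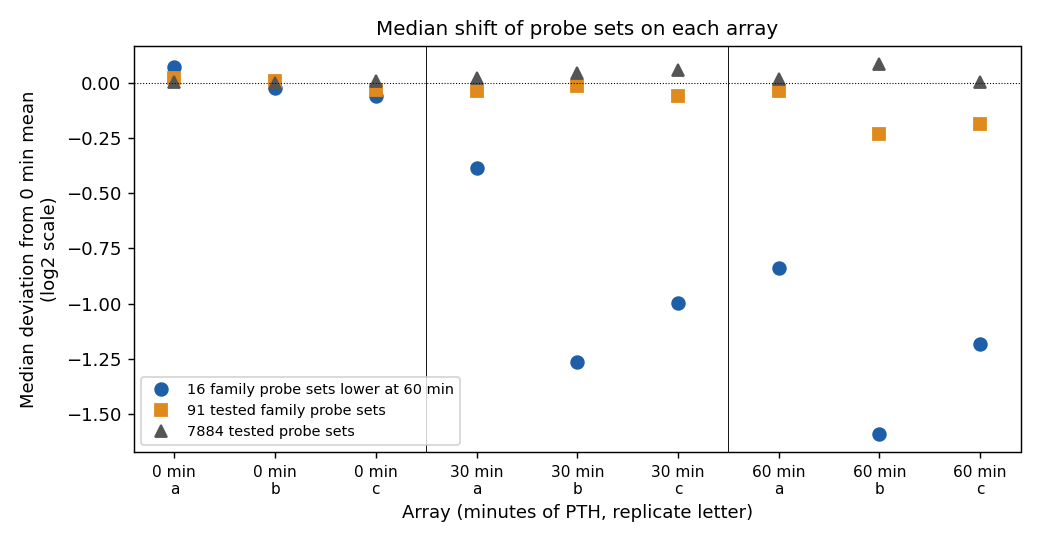
Median deviation from the 0 min mean on the log2(intensity + 11.8) scale (y axis) on each of the 9 arrays (x axis, minutes of PTH and replicate letter). Circles are the 16 members called lower at 60 min, squares the 91 tested members and triangles all 7884 tested probe sets; the circles reach -1.59 on 60 min replicate b and -0.39 on 30 min replicate a, while the triangles stay within 0.08 of 0.

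Genes of the same pathway without these name prefixes were described from a list of 115 names, of which 74 had a probe set and 72 were tested by their brightest one. At 60 min 9 of the 72 were lower and 6 higher, against 9.1% and 4.6% of all genes by their brightest probe set, and 13 lower and 2 higher of the 72 tested genes of the family counted the same way. At 30 min 0 of the 72 passed in limma, against 0.573% higher and 0.489% lower over all genes. An unadjusted limma p under 0.05 was found for 13 of the 72, against 1080 of all 5936 genes. The activating enzymes had 2 of 4 lower. These were Uba3, at 89.9 ± 23.6, against 250.4 ± 5.73 at 0 min, with a change of -1.39 on the log2 scale (SE 0.34, limma adjusted p = 0.0265), and Nae1, at 100.2 ± 32.4, against 243 ± 61.5, with a change of -1.20 on the log2 scale (SE 0.24, limma adjusted p = 0.0159), the 2 subunits of the enzyme that activates NEDD8. Among 10 cullin partners Eloc, encoding elongin C, fell to 220.5 ± 93.0, against 657 ± 62.6 at 0 min, with a change of -1.61 on the log2 scale (SE 0.32, limma adjusted p = 0.0153), while Ddb1 rose by a log2 fold change of 0.43. Among 10 subunits and activators of the APC/C, which is the ligase served by Ube2s, Cdc20 (0.60) and Anapc11 (0.53) rose and Anapc4 (-1.01) fell. Among 25 other ligases Trim28 (0.37) and Stub1 (0.44) rose and Birc2 (-1.06), Rnf2 (-0.93) and Rnf11 (-0.44) fell. Among 9 other deubiquitinases Otud7b (-0.61) and Psmd14 (-0.55) fell, and 1 of 5 genes for ubiquitin and its relatives rose, Sumo3 (0.38). Of 9 receptors and shuttles 0 passed in limma, with 3 at an unadjusted p under 0.05, against 2029 of all 5936 genes. Without 60 min replicate b the calls of Uba3, Anapc11, Trim28, Stub1, Rnf11, Psmd14 and Otud7b were lost, and without 0 min replicate a all 15 were. Anapc4 stood at -0.63, Eloc at -1.24, Birc2 at -0.79 and Nae1 at -0.95 without 60 min replicate b. The probe sets of Rnf11 and Otud7b carry the suffix _f_at, which on this kind of array marks probes that may also bind related sequences. Within the family the brighter Cops7a probe set carries that suffix too. After quantile normalization Sumo3, Ddb1, Trim28, Psmd14 and Otud7b lost their calls, and after cyclic loess Sumo3, Ddb1, Trim28, Anapc11, Stub1 and Otud7b. The lowest value of Sumo3 over all alternatives was 0.09 and that of Ddb1 0.14.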

How the data were processed

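Total RNA was measured on 1-colour short-oligonucleotide arrays. Per the values of the deposited table, the authors' unit is a linear intensity per probe set, from 0.1 to 8605.242. The sources used here do not give the software or summary method. With 2% of probe sets taken off each end the array means were 250.1 or 250.2, so the table was used as scaled. Precision is limited by the number of arrays.

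Symbols were taken from the platform annotation, in which 10833 probe sets had 1 symbol, 396 several and 1193 none. All 112 members matched the mouse gene table of GRCm38.p6. The 66 control probe sets were left out. Intensities were converted to log2(intensity + 11.8), where 11.8 is the table's 20th percentile. One limma 3.58.1 model in R 4.3.3 (lmFit, eBayes with a variance trend, 6 residual and 4.68 prior degrees of freedom) held a mean per time over all 9 arrays, and p-values were Benjamini-Hochberg adjusted over the 7884 tested probe sets. An exact permutation test of 1 probe set could not give a p under 0.1 at this size. The fit was tested on simulated arrays. Plots used matplotlib 3.10.9 (Python 3.11.15).

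Members, classes and lists were chosen with earlier results of these data known. Named with values were members called at 30 min or between 30 and 60 min, the 12 largest falls and 8 largest rises called at 60 min, every cullin and COP9 probe set, the 2 brightest tested members of a class and other probe sets of those genes, while exceptions are stated. Alternatives were other constants, filters and scalings, array weights, a replicate block, the 2 times alone, 1 probe set per gene and each array left out.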

Additional observations from a re-analysis of the deposited data

How the results depend on the processing

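With one array left out, falls at 60 min numbered 1 (no 0 min replicate a) to 22 (no 60 min replicate a, with 13.3% of all tested lower), rises 0 to 6 (the most without 30 min replicate a, with 5.66% of all higher), falls at 30 min 0 to 9 (the most without 60 min replicate b, with 4.96% of all lower), rises at 30 min 0 to 1, and calls between 60 and 30 min 0 in each direction. The median log2 fold change of the family then ran from -0.17 to -0.13 at 60 min, from -0.02 to 0.03 at 30 min and from -0.15 to -0.0719 for 60 against 30 min. Without a filter there were 0 falls at 30 min and 12 falls and 0 rises at 60 min, with a median of -0.0661. The shares over all probe sets were then 0.121% lower at 30 min, and 3.56% lower and 1.69% higher at 60 min. With all 9 arrays above the threshold the median was -0.0501. Quantile normalization gave 3 falls at 30 min, against 1.15% of all tested, and a family median of -0.10 at 60 min. Scaling to the 75th percentile gave 2 falls at 30 min, against 0.774% of all tested, and 5 rises at 60 min, against 6.34%. The family medians were then -0.0797 at 60 min and -0.0404 for 60 against 30 min. Cyclic loess gave 2 falls at 30 min, against 0.761% of all tested, and 1 rise at 60 min, against 2.88%. A constant at the 40th percentile gave 3 falls at 30 min, against 0.913%. A fit of 2 times alone gave 7 falls and 1 rise at 30 min, against 3.6% and 1.33% of all tested. Array weights gave 22 falls and 14 rises at 30 min with a median of -0.0548, 26 falls and 9 rises at 60 min, and 6 falls and 1 rise between 60 and 30 min. The shares over all tested were then 15.1% lower and 15.1% higher at 30 min, 17.5% and 14.2% at 60 min, and 6.13% and 4.44% between 60 and 30 min. The cause was not tested. The replicate letters were not taken to pair the arrays, since deviations of same-letter arrays correlated between -0.128 and 0.304 and not every array correlated best with its own letter. Between 60 and 30 min the same-letter values were 0.304 for a, 0.251 for b and 0.022 for c, the values of a and b being the highest of all array pairs. With the letter as a replicate block there were 7 falls at 30 min, against 2.55% of all tested, and 20 falls and 7 rises at 60 min, against 12.1% and 6.24%. Of 168 values of named probe sets, recomputed 3168 times, calls were lost 173 times and gained 100 times, 0 called values changed sign, and 90 values uncalled in both fits did.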

Other observations

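The 6 tested probe sets of the Ube2d and Ube2e groups, E2 enzymes that work with many ligases, stood below 0 at 60 min without passing the test. Ube2d2a stood at -0.85 and -0.83 by its 2 tested probe sets, Ube2d3 at -0.54 and -0.47, Ube2e1 at -0.57 and Ube2e3 at -0.32. These genes have close relatives, and 3 of these 6 probe sets, of Ube2d2a, Ube2d3 and Ube2e1, carry the suffix _f_at for probes that may also bind related sequences, so their signals cannot be given to 1 gene with certainty. Among the Usp genes that were not called, Usp1, which acts on ubiquitinated PCNA, stood at -0.94 at 60 min with 94.0 on 60 min replicate b, against 305 and 266 on replicates a and c and 354 to 446 at 0 min. Fbxl15, an F-box gene, had the highest value of its class at 60 min, 0.77, from dim signals of 68.3 to 101 at 60 min, against 39.9 to 48.6 at 0 min. These genes were chosen after their values were seen.

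The 0 min means of the 16 members called lower at 60 min had a median intensity of 299, against 296 for the 688 of all tested that were lower.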
